A study of Saccharomyces cerevisiae with 4 samples.

Results

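Budding yeast can build methionine and cysteine from inorganic sulfate, and 34 of the 6697 genes in the deposited table belong to that pathway and its regulators: 10 genes of sulfate uptake and reduction, 8 of methionine synthesis and uptake, 6 of S-adenosylmethionine, 4 of cysteine and 6 regulators. They were chosen by gene name, and every one was found in the table once. Messenger RNA was measured by RNA sequencing in 2 groups of 2 libraries of Saccharomyces cerevisiae. One group was a wild type (WT) that the design text calls isogenic. The other, 9Myc-Swd2, expresses Swd2 with 9 copies of the Myc epitope fused to its N-terminal end. Swd2 is a subunit of the histone H3 methyltransferase complex COMPASS and of the cleavage and polyadenylation factor. All cells grew at 30 °C in YPD, a rich glucose medium made with yeast extract and peptone, and were harvested at an OD600 of 1.0. The comparison asked how the tag on Swd2 goes together with gene expression. The sources used here do not give the strain background, the mating type or how the tag was introduced.

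Sulfate is taken up, activated with ATP, reduced to sulfite and then to sulfide, and sulfide is joined to a carbon chain made from aspartate to give homocysteine. Homocysteine is either methylated to methionine, which feeds S-adenosylmethionine, or turned into cysteine through cystathionine. The activator Met4 switches the genes on. It is brought to promoters by the DNA-binding proteins Cbf1, Met31 and Met32, together with the cofactor Met28. Met4 is held in check by the ubiquitin ligase subunit Met30 when the cell has enough cysteine. A rich medium supplies organic sulfur, a state in which the pathway is known to be turned down.

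The libraries held between 7849193 and 8388090 reads assigned to genes. The authors' normalized read counts are used throughout, and a change is that of 9Myc-Swd2 over WT on the log2(value + 1) scale with its standard error (SE). A gene is called at an adjusted p under 0.05 from limma-trend, a moderated linear model fitted to the 6503 genes whose mean value reached 1. Whether the 2 libraries of a strain came from different cultures is not stated, and the p-values rest on the spread between these libraries alone, which may be technical. SWD2 itself was read at 335 and 351 normalized counts in WT and at 1080.4 and 969 in 9Myc-Swd2. It lies on chromosome XI, where 90.6% of the tested genes were higher, and so do MET1 and MET14 among the members. The strains also differed beyond the tag: the leucine synthesis gene LEU2 was at 31.4 and 22.4 in WT and at 2276 and 2163 in 9Myc-Swd2, and reads of chromosome XI made up 5.78% and 5.80% of the WT libraries against 9.66% and 9.41% of the tagged ones. Neither difference can be told apart from the tag in this design. Because whole cultures were read, fewer cells with an RNA and less of it per cell cannot be told apart either.

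The pathway did not move in one direction. Of the 34 genes, 9 were higher and 11 lower in 9Myc-Swd2, and 14 did not pass. The background over the whole set of tested genes was 22.3% higher and 21.4% lower. The members' shares, 26.5% and 32.4%, differ from that background by few genes, and the counts fell to 5 higher and 5 lower without WT 1 and to 5 higher and 6 lower without WT 2. With libraries scaled to their total counts, 6 members were higher and 14 lower. Off chromosome XI 7 of 32 members were higher, where 18.5% of all genes tested were, and 11 lower, where 22.6% were. The median log2 fold change was -0.08 over the members and 0.00 over all genes tested. Both tagged libraries lay above both WT libraries in 12 members (36.0% of all genes tested) and below them in 18 (35.6%), and the groups overlapped in 4. Changes were small, and MET1 was the 1 member past 2-fold. Altogether the members took 0.415% and 0.400% of the reads in WT and 0.371% and 0.372% in 9Myc-Swd2. These are shares of all reads, of which chromosome XI took more in 9Myc-Swd2. The members' summed normalized counts were 33069 and 32416 in WT and 30935 and 31196 in 9Myc-Swd2.

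A call held under all 14 alternative settings for 8 of the 20 called members. MET1, MET10, MET14, MET4 and MET30 were the 5 that rose, and MET17, MET22 and CYS4 the 3 that fell. The other 12 calls were lost under at least 1 setting. The libraries without which a call was lost are given with each gene, with the limma adjusted p or log2 fold change then found. Leaving out a library leaves 1 in its group, so a call lost in this way does not by itself show a smaller change. By the adjusted p in the authors' deposited table, members were called higher in 6 cases and lower in 7, against 17.8% and 15.5% of all its genes with an adjusted p.

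**Figure D1:**
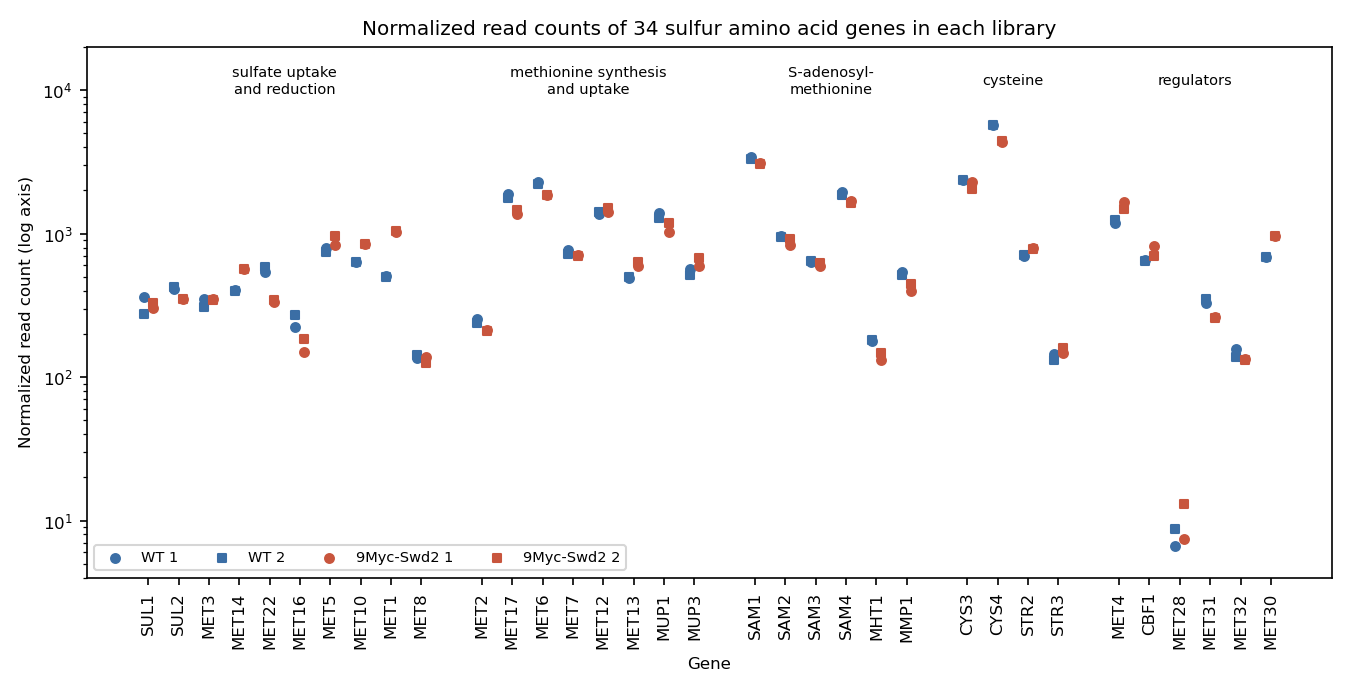
Normalized read counts (log axis) of the 34 genes in each of the 4 libraries, grouped by step; circles are library 1 and squares library 2 of WT (blue) and 9Myc-Swd2 (red). The groups stand well apart for MET1, MET14, MET10 and MET30 (tagged libraries higher) and for MET22 and CYS4 (tagged libraries lower), and MET28 lies far below all others, at 6.65 to 13.1.

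Levels within WT spanned a wide range when divided by coding length. CYS4, which commits homocysteine to cysteine synthesis, had the highest WT mean, 3751 normalized counts per kilobase. It was followed by SAM1 at 2937, CYS3 at 2005, SAM4 at 1945 and MET17 at 1377. The genes of sulfate uptake stood near the other end, with SUL2 at 156 and SUL1 at 124 normalized counts per kilobase. STR3 was at 99.3 and MET28, which encodes the cofactor that stabilizes Met4 complexes on DNA, at 13.7. MET28 rested on 7 and 9 reads in the WT libraries and 7 and 13 in the tagged ones, so its log2 fold change of 0.34 ± 0.49 says little. The other members had at least 124 reads in every library.

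Sulfate uptake and reduction held the largest changes in both directions, MET22 (-0.73) and MET1 (1.04), the latter on chromosome XI. Off that chromosome the largest rise among the members was that of the regulator gene MET30 (0.49). Of the 10 genes of sulfate uptake and reduction 4 rose and 3 fell, where 22.3% and 21.4% of all genes tested did. Off chromosome XI 2 of 8 rose and 3 fell, within about 1 gene of the background there, 18.5% and 22.6%. Off chromosome XI the uptake and activation genes differed little between the strains. SUL2, one of a pair of sulfate permease genes, fell from 413 and 423 normalized counts in WT to 348 and 352 in 9Myc-Swd2. Its log2 fold change was -0.26 ± 0.09 (limma adjusted p = 0.031), and the call was lost without WT 1 (0.13), without WT 2 (0.20) and without 9Myc-Swd2 1 (0.059). SUL1, the other permease gene, was at 319 ± 59.5 and 317 ± 16.6 (SD, n = 2 each), with groups that overlapped. MET3, the ATP sulfurylase gene for the first step of activation, was at 328 ± 31.5 and 348 ± 4.34 and also overlapped.

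MET14 encodes the kinase of the next activation step, and MET1 the methyltransferase that starts the synthesis of siroheme, the cofactor of sulfite reductase. Both lie on chromosome XI (R64 assembly, the one that sacCer3 names), MET14 at 438777 to 439385 on the minus strand and MET1 at 571612 to 573393 on the plus strand, neither with an intron in the annotation. MET1 was at 506 and 502 normalized counts in WT and at 1034 and 1038 in 9Myc-Swd2. It rose by a log2 fold change of 1.04 ± 0.08 (limma adjusted p = 5.36e-09), which is 2.05-fold, with replicates that nearly coincided. MET14 was at 405 and 398 in WT and at 565.7 and 569.6 in 9Myc-Swd2, and rose by 0.50 ± 0.09 (limma adjusted p = 0.000135).

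These rises have to be read beside those of their chromosome, on which 90.6% of the tested genes were higher. The median log2 fold change of the 319 chromosome XI genes that reached 5 CPM (reads scaled to the library total) was 0.90, with quartiles of 0.70 and 1.11. MET1 lay 0.13 above this median, and 106 of the other genes exceeded it. MET14 lay 0.41 below the median, and 37 genes of the chromosome had smaller values (11.6%). Thus MET1 stood within the middle range of its chromosome and MET14 under it, although both rose. The part of the chromosome in either rise was not tested.

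**Figure D2:**
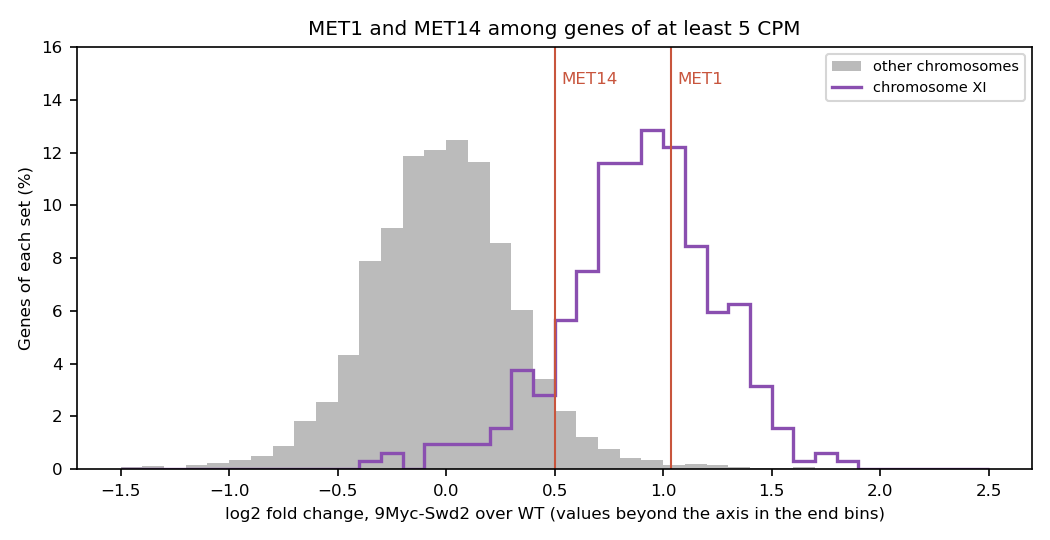
Share of genes (%) by log2 fold change of 9Myc-Swd2 over WT for the 319 genes of chromosome XI (purple line) and the 5541 genes elsewhere (grey) with at least 5 CPM; red lines mark MET1 (1.04) and MET14 (0.50). MET1 falls inside the bulk of chromosome XI genes, and MET14 at its lower side, where the sets overlap.

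The genes of the next enzyme and of the phosphatase that clears its by-product read lower. MET16 encodes the reductase that turns activated sulfate into sulfite and leaves adenosine bisphosphate, which the phosphatase Met22 (also known as Hal2) breaks down. MET22 (chromosome XV, 206103 to 207176, minus strand) was at 540 and 590 normalized counts in WT and at 333 and 346 in 9Myc-Swd2. It fell by 0.73 ± 0.09 on the log2 scale (limma adjusted p = 4.3e-06), to 0.602 of its WT level, the largest fall among the members. MET16 (chromosome XVI, 876847 to 877632, minus strand) was at 223 and 272 in WT and at 149 and 184 in 9Myc-Swd2. Its groups did not overlap, but the libraries of each strain differed, by 0.28 in WT and 0.31 in 9Myc-Swd2 on the log2 scale. It fell by 0.57 ± 0.14 (limma adjusted p = 0.0026), and the call was lost without WT 2 (-0.43, adjusted p = 0.096).

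Sulfite reductase went the other way. MET10, the gene of its alpha subunit on chromosome VI, was at 632 and 631 normalized counts in WT and at 844 and 849 in 9Myc-Swd2. It rose by 0.42 ± 0.07 (limma adjusted p = 0.000202), far beyond the spread of either pair. MET5, the beta subunit gene on chromosome X, was at 791 and 747 in WT and at 829 and 961 in 9Myc-Swd2. Its rise of 0.22 ± 0.08 just passed (limma adjusted p = 0.043). It did not pass without WT 1 (0.093), WT 2 (0.28) or 9Myc-Swd2 2 (0.11 on the log2 scale, adjusted p = 0.33). MET8, which completes siroheme after Met1, was at 138 ± 4.91 and 132 ± 8.64 with overlapping groups.

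The stretches of DNA upstream of the genes of this step, except SUL1, carry the letters bound by Cbf1, CACGTG. They are shown for MET14, MET1, MET22, MET16 and MET10, which had the largest log2 fold changes of this step in either direction. Letters were read from the R64 genome between 400 and 101 bases before each start codon, with 15 bases on either side of the outermost match, 5′ to 3′ on the gene's strand. Capitals mark CACGTG and, where present, CTGTGG, the core bound by Met31 and Met32, which reads CCACAG on the other strand. The positions are chrXI:439593-439628 (minus strand) for MET14, chrXI:571329-571364 (plus) for MET1, chrXV:207291-207326 (minus) for MET22, chrXVI:877790-877825 (minus) for MET16 and chrVI:213048-213120 (plus) for MET10.
MET14: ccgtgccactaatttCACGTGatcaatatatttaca
MET1: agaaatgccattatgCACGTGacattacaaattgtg
MET22: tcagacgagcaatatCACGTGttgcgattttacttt
MET16: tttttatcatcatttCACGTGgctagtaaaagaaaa
MET10: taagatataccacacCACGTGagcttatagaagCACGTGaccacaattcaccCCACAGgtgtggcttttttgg
The windows of MET22 and MET10 reach into a neighbouring gene, CRT10 and PTR3. Genes that rose and genes that fell thus share these letters.

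Both cores were common among the members and occurred in genes of either direction. CACGTG, searched on both strands, occurred in the windows of 18 of 34 members (52.9%) and in 4.55% of the 6001 protein-coding windows of the genome. CTGTGG also occurred in 18 members, against 8.35% of all windows, and 8 members held both, against 0.550%. Among the 18 members with CACGTG 7 rose and 4 fell, and among the 16 without it 2 rose and 7 fell, where 22.3% of all genes tested rose and 21.4% fell. MET1 and MET14, on chromosome XI, are among the 7, and without them 5 of 16 members with CACGTG rose and 4 fell. For all 18 members with CACGTG the log2 changes had a median of 0.01, and for the 16 members without it -0.103. With MET1 and MET14 left out, the median of members with CACGTG was -0.097, close to that of members without it. Among the 18 members with CTGTGG 4 rose and 7 fell, and among the 16 without it, MET1 and MET14 included, 5 rose and 4 fell. MHT1 and MMP1, both among the 7 that fell with CTGTGG, share the same matches between them. A match is a run of letters, not a shown binding site, and these counts were not tested.

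**Figure D3:**
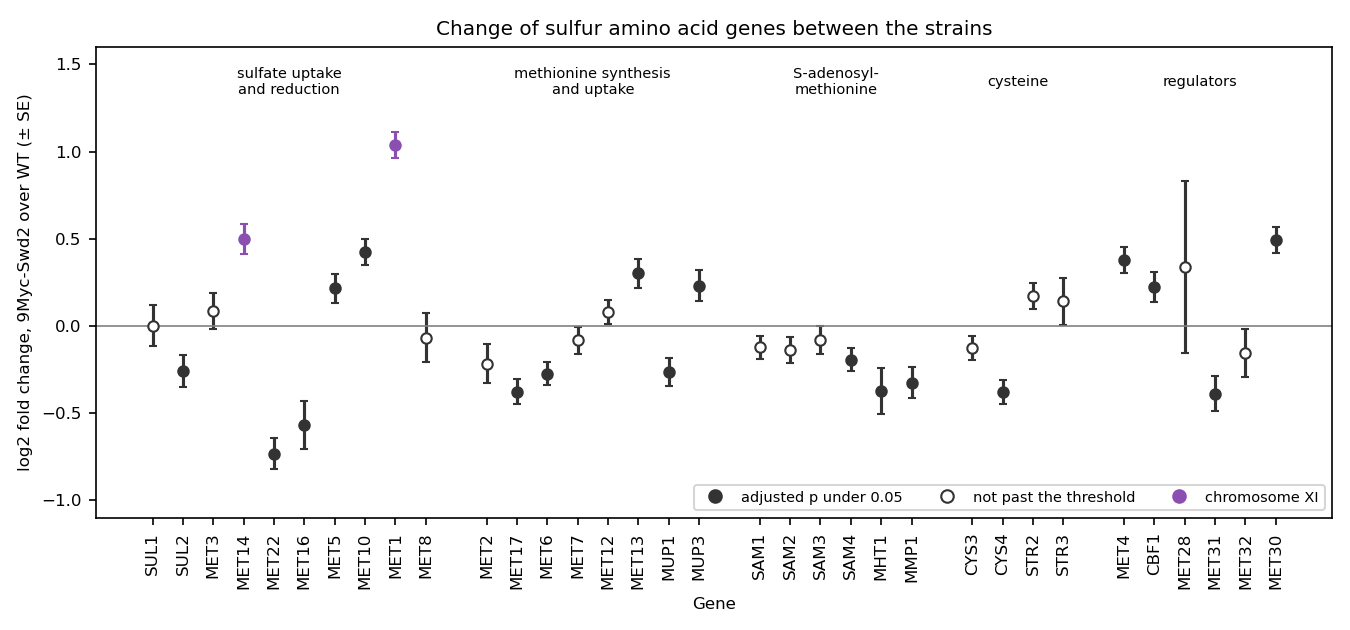
Log2 fold change of 9Myc-Swd2 over WT with its SE for the 34 genes, grouped by step; filled points passed the limma-trend threshold, open points did not, and the chromosome XI genes MET14 and MET1 are purple. Each step except S-adenosylmethionine has points on both sides of 0, and the values run from -0.73 (MET22) to 1.04 (MET1).

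In methionine synthesis the enzymes that make homocysteine and methylate it were lower, while 1 gene of folate supply was higher. Of 8 genes in this step 3 fell and 2 rose, where 21.4% and 22.3% of all genes tested did, and 0 rose without WT 1 or without WT 2. MET17 encodes the sulfhydrylase that joins sulfide to O-acetylhomoserine, and some laboratory strains lack it under its other name MET15. It was read in every library, at 1901 and 1776 normalized counts in WT and at 1376 and 1455 in 9Myc-Swd2. MET17 fell by 0.38 ± 0.07 (limma adjusted p = 0.000287). Its coding region (chromosome XII, 732542 to 733876, plus strand) overlaps the reading frame YLR302C on the other strand at one end. YLR302C was at 20.6 ± 1.71 and 21.1 ± 5.79, so few reads were assigned to it. MET2, which makes the O-acetylhomoserine, was at 246 ± 13.1 and 212 ± 2.86. Its groups did not overlap, but the difference of -0.22 ± 0.11 on the log2 scale missed the threshold (limma adjusted p = 0.13).

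MET6, the methionine synthase gene, was at 2302 and 2221 normalized counts in WT and at 1873 and 1869 in 9Myc-Swd2. It fell by 0.27 ± 0.07 (limma adjusted p = 0.00268), and the adjusted p was 0.054 without WT 1. The methyl group comes from methyltetrahydrofolate, which the reductases Met12 and Met13 produce. MET13, the gene of the main reductase, was at 494 and 500 in WT and at 592 and 633 in 9Myc-Swd2. It rose by 0.30 ± 0.08 (limma adjusted p = 0.0069), a call lost without WT 1 (0.064) and without WT 2 (0.059). MET12 was at 1392 ± 24.8 and 1472 ± 66.7, and MET7, which adds glutamates to folate, at 746 ± 35.7 and 705 ± 1.71. Neither passed, with log2 fold changes of 0.08 ± 0.07 and -0.08 ± 0.08.

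The methionine permease genes went in opposite directions. MUP1, the high-affinity permease, was at 1383 and 1278 normalized counts in WT and at 1035 and 1183.5 in 9Myc-Swd2. It fell by 0.26 ± 0.08 (limma adjusted p = 0.011). The call was lost without WT 1 (log2 fold change -0.21) and without 9Myc-Swd2 1 (-0.17). MUP3, a low-affinity permease, was at 566 and 515 in WT and at 591 and 679 in 9Myc-Swd2. Its rise of 0.23 ± 0.09 had the highest adjusted p among the calls (limma adjusted p = 0.047). It was lost without WT 1 (0.069), WT 2 (0.35) and 9Myc-Swd2 2 (0.13 on the log2 scale, adjusted p = 0.29).

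All 6 genes around S-adenosylmethionine, the methyl donor of the cell and of histone methylation, read lower in both tagged libraries than in both WT libraries. The groups stood apart in this direction in 35.6% of all genes tested. The differences were small, and 3 of the 6 genes passed, where 21.4% of all genes tested fell. The synthetase genes did not. SAM1 was at 3375 ± 60.7 and 3097 ± 24.6, a log2 fold change of -0.12 ± 0.07 (limma adjusted p = 0.14). SAM2 was at 960 ± 14.0 and 873 ± 53.4, with -0.14 ± 0.07 (limma adjusted p = 0.14). SAM2 passed without 9Myc-Swd2 2 (-0.20, adjusted p = 0.043), and both passed when libraries were scaled to total counts. Their coding sequences were 82.8% identical, with 1 shared run of 59 bases, so some reads may fit either gene.

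The genes that recover methionine from methylated compounds made up the rest of this step. MHT1 and SAM4 encode homocysteine methyltransferases that use S-methylmethionine and S-adenosylmethionine, and MMP1 and SAM3 the permeases for those compounds. MMP1 was at 542 and 518 normalized counts in WT and at 399 and 448 in 9Myc-Swd2. It fell by 0.33 ± 0.09 (limma adjusted p = 0.00729). The call was lost without WT 1, where the log2 fold change was -0.29. MHT1 was at 180 and 181 in WT and at 132 and 146 in 9Myc-Swd2 and fell by 0.37 ± 0.13 (limma adjusted p = 0.028). It did not pass without WT 1 (0.14), WT 2 (0.16) or 9Myc-Swd2 1 (0.11). SAM4 was at 1939 and 1866 in WT and at 1682 and 1646 in 9Myc-Swd2 and fell by 0.19 ± 0.07 (limma adjusted p = 0.026). It was lost without WT 1 (0.21), WT 2 (0.096) or 9Myc-Swd2 2 (0.051). SAM3 was at 643 ± 6.80 and 608 ± 23.9 and did not pass. In total 0 of the 6 passed without WT 1 and 1 without WT 2, and 0 passed in the authors' deposited table.

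The genes MHT1 and MMP1 point away from each other on chromosome XII, with 342 bases between them. The shared stretch holds CTGTGG at 2 places; it is shown, on the MMP1 strand at chrXII:17769-17821, because it lies before both genes, which fell.
MMP1: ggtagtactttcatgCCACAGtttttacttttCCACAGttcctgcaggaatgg

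Cysteine synthesis was led by a fall of CYS4. This gene (chromosome VII) encodes cystathionine beta-synthase and was at 5758 and 5674 normalized counts in WT and at 4375 and 4430 in 9Myc-Swd2. The groups were far apart for their spread, and CYS4 fell by 0.38 ± 0.07 (limma adjusted p = 0.000269), to 0.770 of the WT level. CYS3, the cystathionine gamma-lyase that finishes cysteine, was at 2376 ± 11.8 and 2180 ± 172, with a log2 fold change of -0.13 ± 0.07 (limma adjusted p = 0.16). CYS3 passed without 9Myc-Swd2 1 (-0.21, adjusted p = 0.020) and with libraries scaled to total counts. STR2 and STR3, which run the route back from cysteine to homocysteine, lay above WT. STR2 was at 700 ± 8.37 and 789 ± 6.34, a difference of 0.17 ± 0.07 that did not pass (limma adjusted p = 0.072). It passed with the replicate block (0.047), without a filter on low values (0.044) and with size factors computed without chromosome XI (0.043). STR3 was at 139 ± 9.35 and 153 ± 7.40 and did not pass either.

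Among the regulators, the activator gene and the gene of its brake were both higher. MET4 was at 1180.4 and 1249 normalized counts in WT and at 1673 and 1487 in 9Myc-Swd2. It rose by 0.38 ± 0.07 (limma adjusted p = 0.000523). MET30 (chromosome IX) was at 685 and 682 in WT and at 959 and 967 in 9Myc-Swd2, and rose by 0.49 ± 0.07 (limma adjusted p = 3.23e-05). Off chromosome XI it had the largest rise among the members. CBF1 was at 652 and 649 in WT and at 823 and 701 in 9Myc-Swd2. Its tagged libraries differed from each other, and its rise of 0.22 ± 0.09 (limma adjusted p = 0.043) was lost without WT 1 (0.16), WT 2 (0.19) or 9Myc-Swd2 1 (0.11 on the log2 scale, adjusted p = 0.38).

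The zinc finger partners of Met4 were not higher. MET31 was at 331 and 352 normalized counts in WT and at 261 and 260.1 in 9Myc-Swd2. It fell by 0.39 ± 0.10 (limma adjusted p = 0.00482), a call lost without WT 2 (0.093). MET32 was at 148 ± 14.0 and 132 ± 0.607 and did not pass. In all 3 of 6 regulators rose and 1 fell, against 22.3% and 21.4% of all genes tested. The call of CBF1 was kept under 6 of the 14 alternative settings, and MET30 and MET4 were the regulators that rose under all 14 alternative settings.

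The upstream letters of MET17, CYS4, MET4 and MET30, the genes outside sulfate uptake and reduction whose calls held under all 14 alternative settings, are shown for comparison with those above. The positions are chrXII:732227-732288 (plus strand) for MET17, chrVII:798321-798356 (plus) for CYS4, chrXIV:427390-427425 (plus) for MET4 and chrIX:268459-268509 (plus) for MET30. Capitals mark CACGTG and CTGTGG or CCACAG as before.
MET17: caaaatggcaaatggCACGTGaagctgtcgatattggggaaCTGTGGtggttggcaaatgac
CYS4: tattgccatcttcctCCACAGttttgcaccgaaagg
MET4: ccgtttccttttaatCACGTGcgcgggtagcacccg
MET30: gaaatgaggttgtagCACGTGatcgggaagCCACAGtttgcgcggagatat
MET17 and MET30 carry both cores, and MET17 fell while MET30 rose. MET17's window also overlaps YLR302C and a noncoding RNA gene, and that of MET30 the reading frame YIL046W-A.

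Genes that feed the pathway or draw on it were lower more often than higher. Of 42 genes in 7 lists 4 rose, 18 fell and 20 did not pass, with a median log2 fold change of -0.13, where 22.3% of all genes tested rose and 21.4% fell. The number lower dropped to 9 without WT 1, to 10 without WT 2 and to 8 with limma without a trend, and the number higher to 2 without WT 1. The largest changes were in the last step of methionine salvage, in which aminotransferases shared with branched-chain and aromatic amino acids close the cycle. BAT1 was at 3018 and 3036 normalized counts in WT and at 1137 and 964 in 9Myc-Swd2, and BAT2 fell by 0.69 ± 0.07, while the aromatic aminotransferase gene ARO9 rose by 0.74 ± 0.10. Earlier in the methylthioadenosine salvage, the isomerase gene MRI1 fell by 0.46 ± 0.07. Of the 12 genes of the methyl cycle and salvage, 5 fell and 1 rose.

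Several genes that supply the carbon chain and the methyl group were lower too, where 21.4% of all genes tested were lower and 22.3% higher. HOM6, the homoserine dehydrogenase gene, was at 4057 and 4023 normalized counts in WT and at 2861 and 3356 in 9Myc-Swd2 and fell by 0.38 ± 0.08, and HOM2 fell by 0.19 ± 0.07. HOM3, which opens this branch, missed the threshold with a difference of 0.17 ± 0.07 on the log2 scale. SHM2, the cytosolic serine hydroxymethyltransferase gene, fell by 0.45 ± 0.07 and its mitochondrial counterpart SHM1 by 0.23 ± 0.07, and the other 3 of 5 folate genes did not pass. Of 7 glutathione genes DUG2 and GSH2 fell by 0.28 ± 0.08 and 0.21 ± 0.07, and ECM38 rose by 0.37 ± 0.09. That is 28.6% lower and 14.3% higher, which differs from the shares of all genes tested by few genes.

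Other sulfur sources and the ubiquitin ligase of Met30 completed the lists, again beside 21.4% of all genes tested lower and 22.3% higher. IRC7, a cysteine desulfhydrase-like lyase gene, was at 1898 and 1962 normalized counts in WT and at 1273 and 1297 in 9Myc-Swd2 and fell by 0.59 ± 0.07. FZF1, the activator of sulfite export, fell by 0.34 ± 0.10, the exporter gene SSU1 by 0.19 ± 0.07 and the sulfatase gene BDS1 by 0.27 ± 0.10. The remaining 4 of 8 genes in that list did not pass. Of 5 genes for partners of Met30, the cullin gene CDC53 rose by 0.40 ± 0.07, whereas SKP1, RUB1 and CDC34 fell by 0.42 ± 0.08, 0.37 ± 0.08 and 0.20 ± 0.07. MXR2, 1 of 2 methionine sulfoxide reductase genes, rose by 0.24 ± 0.09. HOM6 and RUB1 lost their call under an alternative setting that kept every library. Of the genes named in these lists, 10 lost their call without WT 1 (limma adjusted p of 0.073 to 0.37): HOM2, SHM1, ECM38, DUG2, GSH2, FZF1, BDS1, SSU1, CDC34 and MXR2. 8 of these 10, all but ECM38 and DUG2, lost it without WT 2 (0.052 to 0.25). SSU1, CDC34 and MXR2 also lost it without 9Myc-Swd2 2 (0.052 to 0.19).

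**Figure D4:**
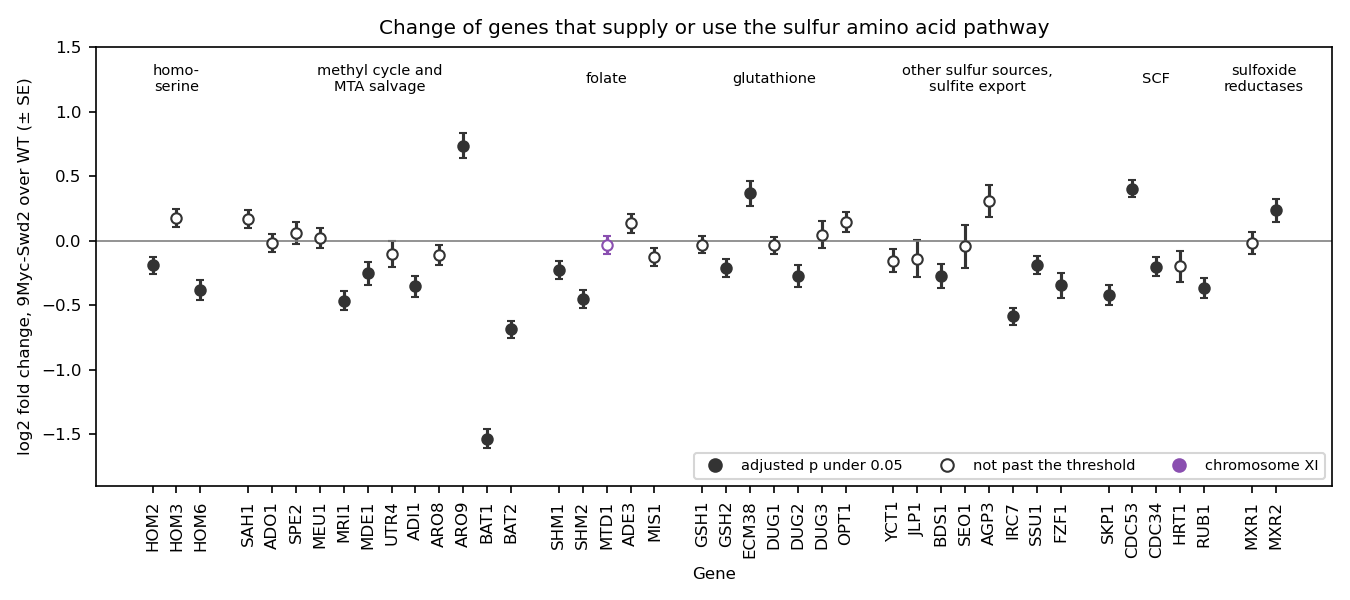
Log2 fold change of 9Myc-Swd2 over WT with its SE for 42 genes that supply or use the sulfur amino acid pathway, in 7 lists (MTA, methylthioadenosine; SCF, the ubiquitin ligase of Met30); filled points passed the limma-trend threshold. Most filled points lie below 0, with BAT1 the lowest at -1.53, and ARO9, CDC53, ECM38 and MXR2 are the 4 filled points above 0.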

How the data were processed

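A single deposited table lists 6697 genes. For each of 4 libraries it holds a signal made by the authors, read counts divided by 1 size factor per library: 100% of the values were whole multiples of a step to within 1e-06 steps. The deposited table also gives log2 fold changes with standard errors, a Wald score, p-values and adjusted p-values, and the log10 of group means (not used), per the file headers. Per the submitters' processing notes, bcl2fastq 1.8.4 and the build sacCer3 were used; the sources used here do not give the aligner, the counter or the use of strand, so reads of overlapping or near-identical genes cannot be told apart.

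limma 3.58.1 (R 4.3.3) was run with a mean-variance trend on log2(value + 1), two-sided, with Benjamini-Hochberg adjustment at 0.05 over all genes tested; this scale understates changes of low genes. edgeR 4.0.16 and DESeq2 1.42.0 on the recovered reads were alternatives. Each test was also run on simulated counts with a fixed spread and few changed genes, which does not show how it fares on these libraries. Errors of values are SDs over 2 libraries. Genes were placed by RefSeq locus tag (R64), which matched 6014 identifiers and all 34 members; overlap with reading frames that have no RefSeq record was not examined. Members, lists and tests were chosen with earlier results of these data known. The text names every member and, per further list, at most the 4 called genes with the smallest p, plus SWD2. HOM3, LEU2 and YLR302C were named after their values were seen.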

Additional observations from a re-analysis of the deposited data

How the results depend on the processing

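The counts of called members moved by over 1.5 times under several settings. The members lower fell from 11 to 6 without a filter on low values, to 7 with limma without a trend and to 7 in the authors' deposited table; leaving out 1 library gave 5 to 11 lower and 5 to 8 higher. The genes of the further lists went from 4 higher and 18 lower to 2 and 10 without a filter, 2 and 8 without a trend, 7 higher with size factors computed without chromosome XI, and 10 lower in DESeq2 and in the deposited table; leaving out 1 library gave 2 to 6 higher and 9 to 18 lower. Over all genes, 1448 higher and 1393 lower became 950 and 847 without a filter and 882 lower without a trend, and leaving out 1 library gave 972 to 1596 higher and 780 to 1440 lower. The cause was not tested. Scaling to total counts gave 1185 higher and 1721 lower over all genes, or 40.8% higher among the calls in place of 51.0%. Same-numbered libraries deviated together with a correlation of 0.042, and with only 2 pairs the numbers do not show a pairing. A replicate block gave 10 members higher, STR2 being the one added, and 11 lower, and 7 further list genes higher. Signs turned for 3 members that were not called. SUL1, at 0.0018 by limma-trend, had -0.0075 in edgeR, -0.010 in DESeq2 and in the deposited table and -0.056 with scaling to total counts. With 1 library left out SUL1 ran from -0.19 to 0.19, MET3 from -0.012 to 0.18 and MET28 from -0.033 to 0.71. The depth limits MET28, which had 7 to 13 reads.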
